A study of Mus musculus with 2 samples.

Results

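Ccrl2, a gene for an atypical chemoattractant receptor on mouse chromosome 9, and 8 genes that lie near it (Nbeal2, Setd2, Klhl18, Ptpn23, Scap, Dhx30, Map4 and Smarcc1) were followed in blood cells of wild-type (WT) and APP/PS1 mice. These are 9 of the 32285 genes in the count tables. Ccrl2 was chosen by its measured difference between the WT and APP/PS1 libraries, so its values in that contrast are a description. The neighbours were picked from genes near it, with earlier results of these data known, to see whether they shift with it. They all lie on its lower-coordinate side and are not the nearest genes. Ltf, Lrrfip2, Epm2aip1 and Ccdc12 start nearer and are given below. All 9 symbols were found in the tables, and all 9 had at least 100 UMIs (unique molecular identifiers, counts of captured RNA molecules) over both libraries in neutrophils and in monocytes.

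The study enriched neutrophils from peripheral blood by negative selection with magnetic beads and profiled single cells by droplet RNA sequencing of transcript 3′ ends. The WT library came from 3 pooled C57BL/6J mice and the APP/PS1 library from 3 pooled transgenic mice, all female and 7 months old. APP/PS1 mice carry mutant human amyloid precursor protein and presenilin transgenes and deposit amyloid in the brain; the strain background of the transgenic line was not given in the sources used here. With 1 library per genotype, there was no replicate error, no test was run, and genotype, source of the mice and library cannot be told apart.

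The WT library held 17123 cells and 92458623 UMIs and the APP/PS1 library 17645 cells and 84870864 UMIs. After quality filters, 14564 and 15208 cells were kept. Cells in clusters with neutrophil markers numbered 7587 and 9592, with a median of 2551 and 2701 UMIs per cell, and all 8 neutrophil markers were detected in both libraries. Monocytes remained after enrichment, with 5346 cells in WT and 3590 in APP/PS1. The libraries shared 83 cell barcodes, 63 of them among kept cells. UMIs were summed over the cells of a type divided by all UMIs of those cells and given per 1000000 UMIs (CPM). Each interval given is an exact 95% interval for counting error only and does not cover the difference between mice.

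CCRL2 resembles chemokine receptors but does not signal through G proteins in the usual way. It binds chemerin, a chemoattractant protein, and can present it to cells that carry the signalling receptor CMKLR1. In neutrophils and monocytes it is known as a gene that inflammatory stimuli raise, and it has been linked to the movement of neutrophils through its partnership with CXCR2.

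In the mm10 assembly (GENCODE M21), Ccrl2 (ENSMUSG00000043953) lies on the minus strand of chromosome 9 at chr9:111054486-111057519. It is a gene of 3.03 kb with 3 annotated transcripts of at most 3 exons. No exon of another gene on the same strand overlaps it. The 8 neighbours lie to its lower-coordinate side between 109931460 and 110654161. The member with the nearest start site is Nbeal2, at chr9:110624789-110654161 on the same strand, 403 kb away. Exons of Nbeal2 and Dhx30 overlap 1 small same-strand gene each (Mir8107 and Gm27855), and those of the other 6 neighbours overlap none. The counts were made from exonic reads in the sense direction.

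RefSeq lists 3 start sites for Ccrl2 in GRCm38.p6, the assembly that mm10 is made from. The 250 bases before the most upstream of them (chr9:111057519-111057768, minus strand) are shown because this is the stretch just upstream of the gene whose transcript differed, beside the same stretch of Nbeal2 (chr9:110654162-110654411, minus strand), whose transcript did not differ by more than the 0.5 limit used below. Capitals mark the letters of a searched motif, 5′ to 3′ on the gene's strand.
Ccrl2: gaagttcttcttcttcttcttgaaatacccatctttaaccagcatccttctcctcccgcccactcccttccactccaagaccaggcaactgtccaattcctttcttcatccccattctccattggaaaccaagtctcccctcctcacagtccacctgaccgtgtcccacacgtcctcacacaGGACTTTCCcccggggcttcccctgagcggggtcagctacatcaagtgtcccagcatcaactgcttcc
Nbeal2: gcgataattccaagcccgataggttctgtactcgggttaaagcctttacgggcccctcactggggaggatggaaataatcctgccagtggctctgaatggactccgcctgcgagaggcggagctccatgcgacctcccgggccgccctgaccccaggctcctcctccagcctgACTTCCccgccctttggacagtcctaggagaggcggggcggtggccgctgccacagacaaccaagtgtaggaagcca

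The motifs searched on both strands, in 250 bases before to 50 after each start, were GGAANTTCC for NF-kB, GGAAGT for ETS factors, TTGCGCAA for C/EBP factors, TGANTCA for AP-1, TGACGTCA for cyclic AMP responsive factors and TATAAA for the TATA box; one form of the first also holds the ETS letters. None of these letters occurred at any of the 3 Ccrl2 starts. The Ccrl2 sequence holds GGACTTTCC, another form bound by NF-kB, which was searched only after this promoter had been seen. That form begins 68 bases before the start and is found in 0.347% of 32544 promoters of the same length. Of the neighbours, Nbeal2, Klhl18, Scap and Dhx30 hold the ETS letters, which are in 23.7% of promoters, and Klhl18 and Scap hold TATAAA, which is in 13.6%. These matches describe letters only.

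Ccrl2 was higher in the APP/PS1 neutrophils. Its level was 286 CPM in WT (279 to 293) and 559 CPM in APP/PS1 (550.5 to 567.6), from 6224 and 16461 UMIs, and the intervals did not overlap. The log2 ratio of APP/PS1 to WT was 0.97 (0.92 to 1.01), or 1.95-fold. A gene was counted as past the limit in a cell type when it had at least 100 UMIs over both libraries there and its log2 ratio was 0.5 or more in either direction. Of 8305 genes with enough UMIs in neutrophils, 4.58% were past the limit on the higher side and 3.58% on the lower side. Ccrl2 ranked 33 from the highest. It was chosen on this contrast, so nothing is read from its place.

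None of the 8 neighbours was past the limit in neutrophils. Over all genes with enough UMIs, 4.58% were past it on the higher side and 3.58% on the lower side, so this count is near the background. The median log2 ratio of the neighbours was 0.04, beside 0.05 over all genes with enough UMIs. Summed over the 8 neighbours, the level was 268 CPM in WT against 272 CPM in APP/PS1, a log2 ratio of 0.02 (-0.03 to 0.07). These sums rest on 5833 UMIs in WT and 8016 in APP/PS1.

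The neighbours that act on chromatin, grouped here for description only, both had lower values in APP/PS1. Setd2, a histone methyltransferase of transcribed genes, was at 89.5 CPM in WT against 80.0 CPM in APP/PS1, a log2 ratio of -0.16 (-0.25 to -0.07). Smarcc1, a core subunit of the BAF chromatin remodelling complex, was at 3.86 and 3.26 CPM, with a log2 ratio of -0.24 (-0.68 to 0.20). The interval of Setd2 excluded 0 while that of Smarcc1, on 180 UMIs, did not, and neither was past the limit.

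The neighbours with roles in membranes and organelles had ratios from -0.16 to 0.14, the lowest of them like that of Setd2. Nbeal2, a BEACH-domain protein needed for granules of platelets and leukocytes, was at 89.4 CPM in WT against 98.7 CPM in APP/PS1, with a log2 ratio of 0.14 (0.06 to 0.23). Ptpn23, which sorts receptors at endosomes, was at 14.4 and 12.9 CPM, with a log2 ratio of -0.16 (-0.38 to 0.06). Scap, the sterol sensor that escorts SREBP proteins, was at 3.68 and 3.80 CPM, with a log2 ratio of 0.05 (-0.38 to 0.48). Of these, the interval excluded 0 for Nbeal2 alone.

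The remaining neighbours act on RNA, microtubules and protein turnover, and their ratios were at or above 0. Dhx30, an RNA helicase, had the highest ratio of the 8, at 3.54 CPM in WT against 4.92 CPM in APP/PS1, which gives 0.48 (0.07 to 0.90) on 222 UMIs. That value stood just under the limit of 0.5, and its interval reached past it. Map4, a microtubule-associated protein, was at 28.9 and 32.8 CPM, a log2 ratio of 0.19 (0.04 to 0.33). Klhl18, a substrate adaptor of a ubiquitin ligase, was at 34.9 and 35.8 CPM, a log2 ratio of 0.04 (-0.10 to 0.17). The intervals of all 8 neighbours ended below the 0.92 at which that of Ccrl2 began. Ccrl2 was chosen on this contrast, so that gap is a description only.

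**Figure D1:**
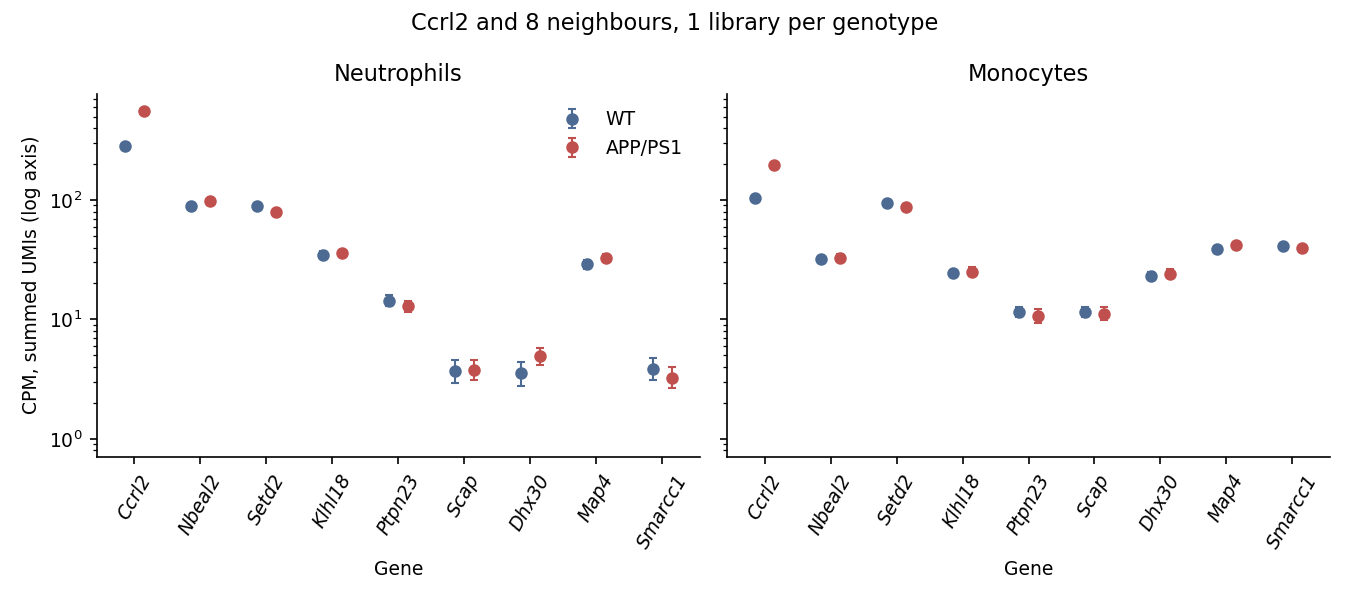
CPM (log axis) of Ccrl2 and its 8 neighbours in neutrophils and monocytes, as 1 point per library with the exact 95% counting interval. In neutrophils the Ccrl2 points stand at 286 CPM (WT) and 559 CPM (APP/PS1), while the points of each neighbour lie close together.

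Ccrl2 was also higher in the APP/PS1 monocytes, which come from the same mice and libraries and so are no independent support. Ccrl2 was at 105 CPM in WT (102 to 108) and 197 CPM in APP/PS1 (191 to 203), a log2 ratio of 0.91 (0.85 to 0.97). Of 10154 genes with enough UMIs in monocytes, 2.0% were past the limit on the higher side and 2.83% on the lower side, and Ccrl2 ranked 34 from the highest. None of the 8 neighbours was past the limit there. Their ratios ran from -0.11 for Setd2 to 0.10 for Map4, with a median of -0.003 beside -0.02 over all genes, and their summed level gave -0.02 (-0.07 to 0.02). Dhx30, which had far more UMIs in monocytes (1338), was at 23.2 and 24.1 CPM there, a log2 ratio of 0.05 (-0.11 to 0.21).

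RNA of neutrophils was present among the monocytes, and its amount is given here because neutrophils had more Ccrl2. All 8 neutrophil markers were detected in monocytes, at 14842 CPM in WT against 11915 CPM in APP/PS1 summed. Leaving out S100a8 and S100a9, these markers were at 8.69% of their neutrophil level in WT and 8.50% in APP/PS1. Ccrl2 stood at 36.7% and 35.3% of its neutrophil level. After cells called doublets had been removed, the markers were at 3.33% and 4.51% and Ccrl2 at 32.8% and 31.1%, with 93.7 CPM in WT, 173 CPM in APP/PS1 and a log2 ratio of 0.89 (0.81 to 0.96). The monocyte clusters both had higher Ccrl2 in APP/PS1. In the cluster led by Cd300e, Cd36 and Fabp4, it was at 160 CPM in WT against 297 CPM in APP/PS1, and in the cluster led by Fn1, F13a1 and Vcan, at 68.0 and 134 CPM, with log2 ratios of 0.89 and 0.98.

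In lymphocytes, the Ccrl2 level was lower than in monocytes, and the ratio differed between cell types. Natural killer (NK) cells had 45.0 CPM in WT against 85.3 CPM in APP/PS1, a log2 ratio of 0.92 (0.55 to 1.32). T cells had 40.7 and 54.7 CPM, a log2 ratio of 0.43 (0.02 to 0.84). B cells had 43.9 and 32.8 CPM, a log2 ratio of -0.42 (-0.94 to 0.09). Ccrl2 was thus past the limit in NK cells and not in T or B cells. The share of genes past it on the higher and lower side was 3.35% and 2.16% in NK cells, 4.11% and 4.35% in T cells, and 3.43% and 6.07% in B cells. Of the neighbours with enough UMIs, 0 of 5 in NK cells, 0 of 5 in T cells and 0 of 4 in B cells were past the limit with doublets left in. Nbeal2 was at 0.42 (0.12 to 0.73) in T cells, about the ratio of Ccrl2 there, and at 0.35 (0.05 to 0.65) in NK cells. No other neighbour had an interval that excluded 0 in these lymphocytes.

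Neutrophil RNA was present among the lymphocytes too, and the Ccrl2 ratio there changed when doublets were removed. Neutrophil markers without S100a8 and S100a9 stood at 10.6% (WT) and 11.9% (APP/PS1) of their neutrophil level in NK cells, at 7.02% and 9.35% in T cells, and at 6.97% and 3.94% in B cells. Ccrl2 stood at 15.7% and 15.3%, at 14.2% and 9.79%, and at 15.3% and 5.87%. With called doublets removed, Ccrl2 in NK cells fell to 25.6 and 32.1 CPM, a log2 ratio of 0.33 (-0.26 to 0.94) that was no longer past the limit. In T cells the ratio became 1.62 (0.86 to 2.45), on 18 and 73 UMIs. In B cells it became 0.24 (-0.61 to 1.11), on 21 and 31 UMIs. These T and B cell counts fall short of the UMIs that the limit requires. Neutrophil RNA was still present after the removal, and unequally in T cells. The same markers then stood at 2.79% (WT) and 5.22% (APP/PS1) in T cells, where Ccrl2 stood at 4.37% and 6.89%. They stood at 3.58% and 3.17% in NK cells and at 3.48% and 2.62% in B cells. With doublets removed, the neighbour Nbeal2 was past the limit in T cells, at 63.2 CPM in WT against 98.5 CPM in APP/PS1. Its log2 ratio was 0.64 (0.27 to 1.02), on 91 and 187 UMIs. No other neighbour with enough UMIs was past the limit in lymphocytes. The part of carried-over RNA in these ratios was not tested.

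Erythroid cells and basophils, both few, completed the order of levels. Erythroid cells had 74.7 CPM in WT against 165 CPM in APP/PS1, and their neutrophil markers stood at 19.0% and 26.1% of the neutrophil level. Basophils had 163 CPM (125 to 209) in WT and 147 CPM (101 to 208) in APP/PS1, intervals that overlap almost fully. From high to low by CPM, the order in WT was neutrophils, basophils, monocytes, erythroid cells, NK cells, B cells and T cells. The intervals of the last 3 overlapped, so their order is not settled. In APP/PS1 the order was neutrophils, monocytes, erythroid cells, basophils, NK cells, T cells and B cells. There the intervals of monocytes, erythroid cells and basophils overlapped. A CPM is a share of a cell type's UMIs, and erythroid markers took up 627957 (WT) and 564498 (APP/PS1) per 1000000 in erythroid cells. Counted as Ccrl2 UMIs per cell, WT basophils (0.849) stood above WT neutrophils (0.820) and monocytes (0.679), and NK cells (0.176) came last. In APP/PS1 the order per cell was that by CPM.

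**Figure D2:**
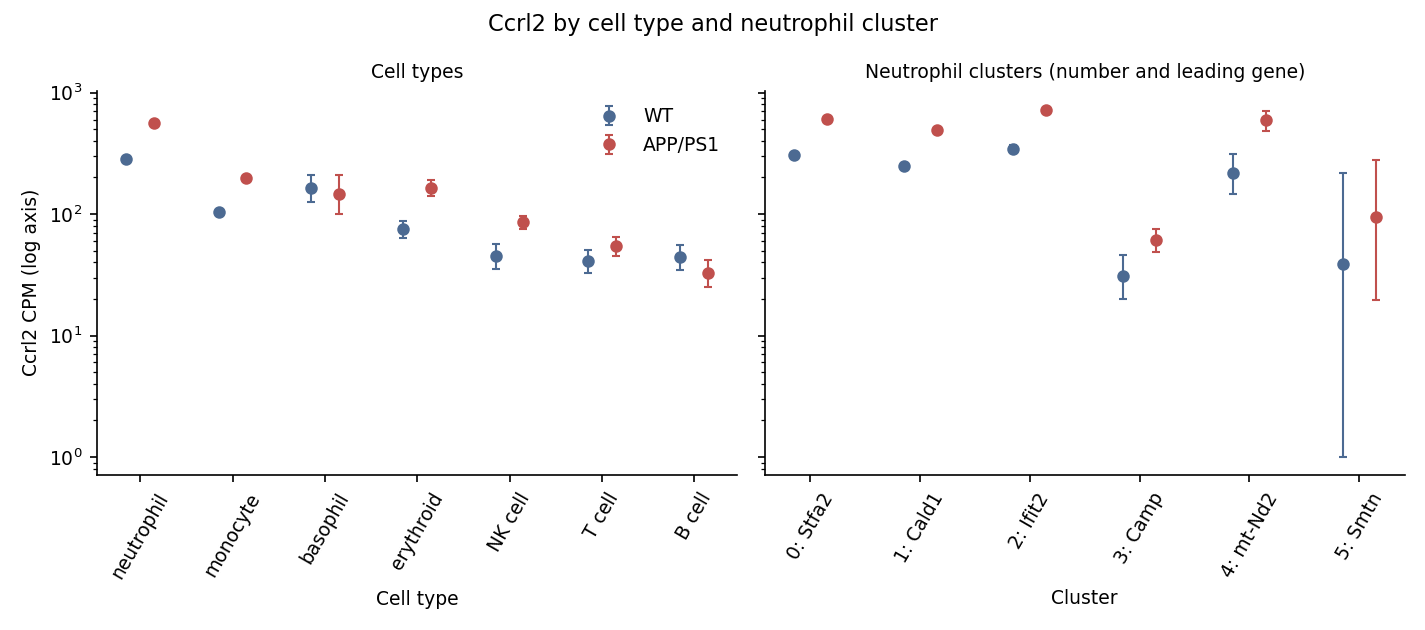
Ccrl2 CPM (log axis) in WT and APP/PS1 by cell type (left) and by neutrophil cluster, named by number and leading gene (right), as 1 point per library with the exact 95% counting interval. APP/PS1 points lie above WT points in every neutrophil cluster, though the intervals overlap in cluster 5. They lie below WT points in basophils and B cells, where the intervals overlap.

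The difference in neutrophils was seen both in how many cells had a Ccrl2 UMI and in how many UMIs those cells had. In WT, 2708 of 7587 neutrophils (35.7%, exact Clopper-Pearson interval 34.6% to 36.8%) had at least 1, and in APP/PS1, 4973 of 9592 (51.8%, 50.8% to 52.8%), a difference of 16.2 percentage points. In B cells, taken as the comparison for free RNA although their lack of the gene was not tested, the shares were 10.9% and 10.1%, at median depths of 5001 and 5875 UMIs per cell. Removing called doublets took B cells from 303 to 268 in WT and from 307 to 290 in APP/PS1. Their Ccrl2 UMIs went from 72 to 21 and from 60 to 31, so these shares are no measure of free RNA alone. Cells with a UMI held 2.30 on average in WT neutrophils and 3.31 in APP/PS1 neutrophils. Neutrophils with at least 3 Ccrl2 UMIs made up 10.6% and 23.6%, and the highest count in a single cell was 23 and 37.

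Depth differed little between the neutrophils of the libraries, and the difference held when it was equal. With each cell thinned to 1000 UMIs, 20.2% of WT and 32.0% of APP/PS1 neutrophils had a Ccrl2 UMI, beside 1.98% and 2.93% of B cells with doublets left in. Left out were 2 APP/PS1 neutrophils that were too shallow. In monocytes the shares were 36.3% and 50.7% before thinning and 9.28% and 17.3% after it. Within bands of total UMIs per neutrophil, the Ccrl2 log2 ratio was 0.82 (0.69 to 0.94) from 1000 to 2000 UMIs, 1.06 (1.0 to 1.12) from 2000 to 3000, 1.05 (0.96 to 1.14) from 3000 to 5000 and 0.90 (0.79 to 1.01) above that. The summed neighbours gave 0.13, -0.001, 0.01 and 0.11 in the same bands.

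**Figure D3:**
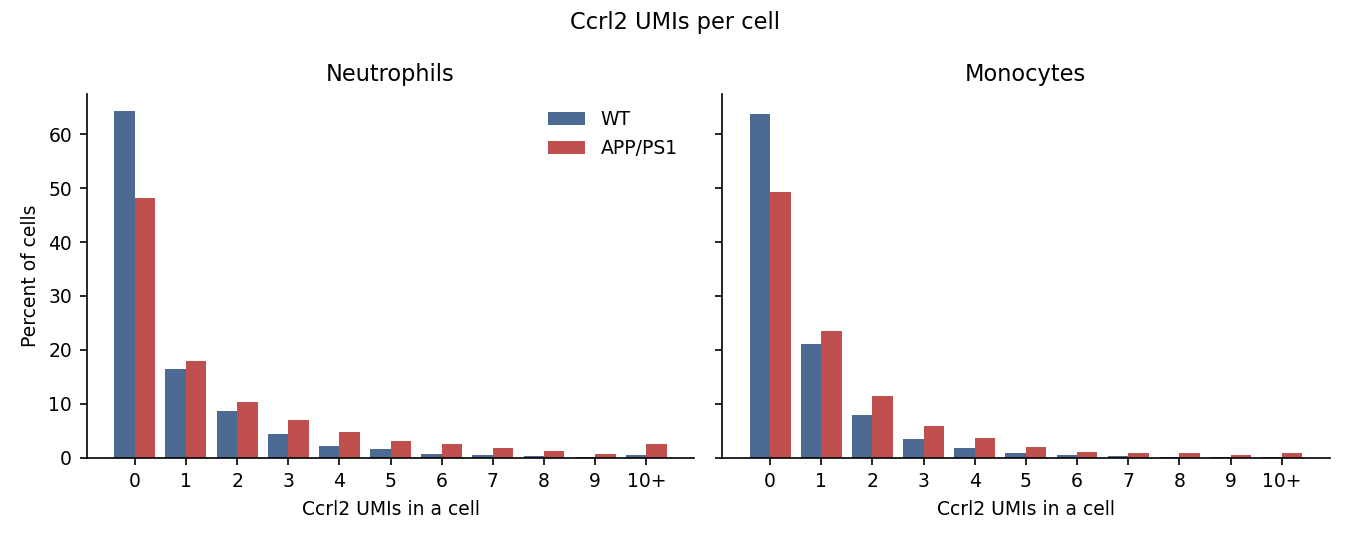
Percent of neutrophils (left) and monocytes (right) of each library with 0 to 9 or at least 10 Ccrl2 UMIs; bars start at 0. Cells with no Ccrl2 UMI fell from 64.3% in WT to 48.2% in APP/PS1 neutrophils, and cells with at least 10 went from 0.435% to 2.59%.

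Neutrophils were clustered again with the 9 genes, and every gene within 5 Mb of Ccrl2, left out of the clustering, so that clusters were not defined by them. Ccrl2 was higher in APP/PS1 in 6 of 6 clusters, of which cluster 5 had too few UMIs to read. Cluster 0, led by Stfa2 and holding 5114 and 5951 cells, had 306 CPM in WT against 604 CPM in APP/PS1, a log2 ratio of 0.98 (0.93 to 1.03). Cluster 1, which carried platelet genes such as Itga2b and Gp5, had 251 and 495 CPM, a log2 ratio of 0.98 (0.88 to 1.07). Cluster 2, led by interferon-induced genes such as Ifit2 and Ifit3, had the highest level in both libraries, at 343 and 714 CPM, a log2 ratio of 1.06 (0.92 to 1.20).

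The lowest Ccrl2 level was in a small cluster with granule genes. Cluster 3, led by Camp, Ltf and Ngp, which neutrophils transcribe as they form secondary granules, had 31.1 CPM in WT against 61.3 CPM in APP/PS1, a log2 ratio of 0.98 (0.32 to 1.68) on 25 and 84 UMIs. Cluster 4, led by mitochondrial genes, had 217 and 591 CPM, a log2 ratio of 1.44 (0.84 to 2.09) on 29 and 110 UMIs. Cluster 5 held 33 cells and 1 and 3 Ccrl2 UMIs, too few to read. The intervals of the ratio overlapped among all these clusters.

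The difference per cell was the same after reweighting to equal shares of the integrated clusters. WT neutrophils held 0.820 Ccrl2 UMIs per cell and APP/PS1 neutrophils 1.72, and APP/PS1 neutrophils reweighted to the cluster shares of WT also held 1.72. These clusters came from libraries aligned to each other, and their shares were already close, so this value could hardly move. In WT and APP/PS1, cluster 0 held 67.4% and 62.0% of neutrophils, cluster 1 21.3% and 25.4%, and cluster 2 8.44% and 9.48%. The clusters without integration were not reweighted, and nothing about cluster composition is read from this. Nbeal2 and Setd2, the neighbours with the most neutrophil UMIs, gave log2 ratios of 0.13 and -0.21 in cluster 0, 0.18 and -0.04 in cluster 1, and 0.21 and -0.14 in cluster 2. Without integration of the libraries, Ccrl2 was higher in 5 of 6 clusters, and the exception was the cluster led by Camp, at -0.02. The 5 again include a cluster with only 1 and 3 Ccrl2 UMIs. Markers of platelets stood at 839 CPM in WT against 1009 CPM in APP/PS1 neutrophils, summed over 6 genes of which none was at 0. With every cell that held a platelet marker UMI left out, the Ccrl2 ratio was 1.10 and none of the neighbours was past the limit; Dhx30, at 0.50, then had fewer than 100 UMIs.

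The tables hold 246 genes within 5 Mb of Ccrl2 other than Ccrl2 itself, the 8 neighbours among them, and 72 of these had enough UMIs in neutrophils. Of those, 4 (5.56%) were past the limit on the higher side, 2 (2.78%) on the lower side, and their median log2 ratio was 0.09. Over all genes with enough UMIs these shares were 4.58% and 3.58%. None of the 72 had a ratio above that of Ccrl2, which was chosen for its ratio. Those on the higher side were Ip6k2, an inositol phosphate kinase, at 0.72 (0.36 to 1.09), Nradd, a death-domain membrane protein, at 0.59 (0.19 to 1.0), Ltf, which encodes lactoferrin, at 0.57 (0.52 to 0.62), and Hyal1, a hyaluronidase, at 0.53 (0.11 to 0.97). On the lower side were Rpl29, a ribosomal protein gene, at -0.76 (-0.83 to -0.70) and Parp3, an ADP-ribosyltransferase, at -0.54 (-0.87 to -0.21).

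The ratios of the nearest genes with enough UMIs differed in sign. On the lower-coordinate side, the 5 nearest, from far (525 kb) to near, were Setd2, Nradd, Nbeal2, Ccdc12 and Ltf. Their log2 ratios were -0.16, 0.59, 0.14, 0.25 and 0.57, and all 5 intervals excluded 0. On the other side, Lrrfip2 (60.1 kb away) and Epm2aip1 (214 kb) were at -0.11 and -0.04. Pdcd6ip, Clasp2 and Ubp1, 2651 to 2873 kb away, were at -0.01, -0.03 and -0.02. On that side only the interval of Lrrfip2 excluded 0, at -0.22 to -0.002. Ltf, whose start lies 38.2 kb from that of Ccrl2, is the nearest gene with enough UMIs. It was at 220 CPM in WT against 326 CPM in APP/PS1 neutrophils, but outside the cluster led by Camp, Ngp and Ltf it was at 6.55 and 7.02 CPM, a log2 ratio of 0.10 (-0.22 to 0.42). That value pools clusters of all kept cells that went both ways. Ltf was at 3.74 and 7.25 CPM, a log2 ratio of 0.96 (0.48 to 1.45), in the neutrophil cluster led by Stfa1 and Cxcl2. In the cluster led by Alox12 and Cald1 it was at 3.28 and 7.51 CPM, a log2 ratio of 1.19 (0.39 to 2.08), and in the cluster led by Ifit3b and Ifit3 at 45.8 and 4.68 CPM, a log2 ratio of -3.29 (-4.18 to -2.49). These low levels rest on 16 to 117 UMIs per library. The other granule genes of the window, Camp and Ngp, were at 0.45 and 0.41 in all neutrophils and at 0.72 (0.47 to 0.98) and -0.42 (-0.57 to -0.27) without the granule gene cluster. Ccrl2 without that cluster was at 295 and 582 CPM, a log2 ratio of 0.98 (0.94 to 1.02).

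In monocytes, 90 of the window's genes had enough UMIs, with a median log2 ratio of -0.02, and 3 (3.33%) were past the limit on each side, beside 2.0% and 2.83% over all genes. Those on the higher side were Camp at 1.51, Ltf at 1.54 and Ngp at 0.96, all above Ccrl2 and all genes of neutrophil granules at low levels in monocytes; Ltf was at 2.08 CPM in WT against 6.06 CPM in APP/PS1. On the lower side were Rpl29 at -0.89, Abhd14b at -1.08 and Amigo3 at -0.84. Rpl29, on the lower side, and Ltf, on the higher side, were past the limit in both cell types.

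**Figure D4:**
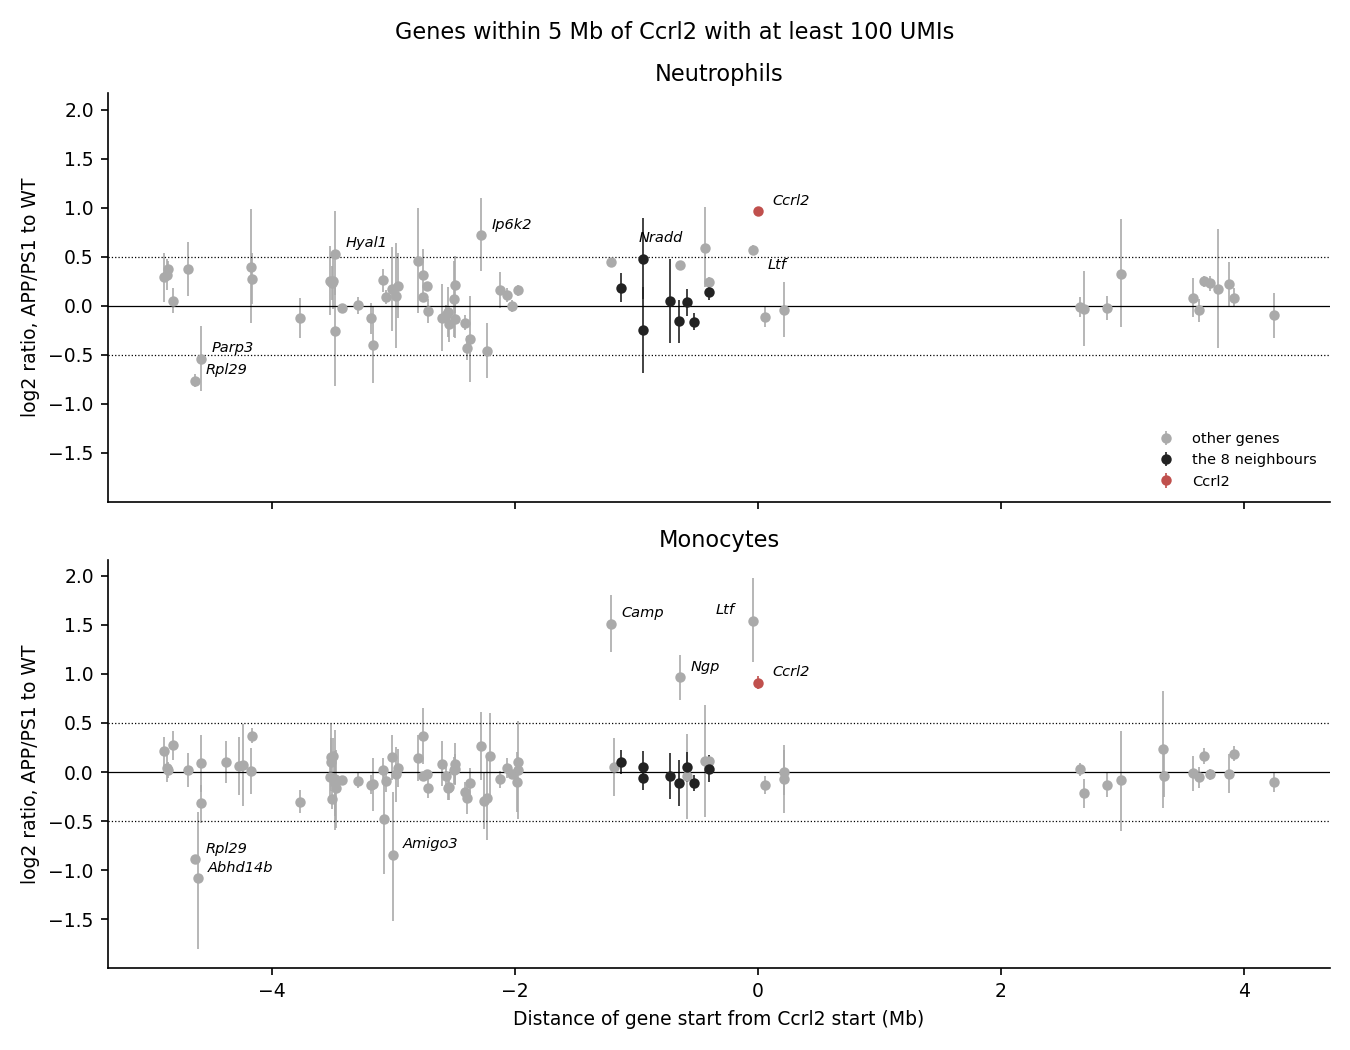
Log2 ratio of APP/PS1 to WT for genes within 5 Mb of Ccrl2 with at least 100 UMIs, against the distance of their start from that of Ccrl2 (Mb), in neutrophils (top) and monocytes (bottom), with exact 95% counting intervals and dotted lines at the limit of 0.5. Ccrl2 stands at 0.97 and 0.91, and the 8 neighbours lie between the dotted lines.

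Chemoattractant receptor genes were looked at next to Ccrl2. Of a list of 20 genes of the chemerin system and of chemoattractant and atypical receptors, 19 were in the tables under the listed symbols and 11 had enough UMIs in neutrophils. Of these, 1 was past the limit on the higher side, 0 on the lower side and 10 lay between, with a median of 0.05, beside 4.58% and 3.58% past the limit over all genes, so the count is near the background. The gene past it was Ccr3, an eotaxin receptor, at 2.66 CPM in WT against 6.59 CPM in APP/PS1, a log2 ratio of 1.31 (0.88 to 1.75). Cxcr1, a CXC chemokine receptor, was at 0.49 (0.33 to 0.66), just under the limit. The lowest were Ccr2, the receptor that brings monocytes out of the marrow, at -0.50 (-0.75 to -0.24), which was just short of the limit before rounding, and the formyl peptide receptor Fpr2 at -0.22 (-0.28 to -0.17). Cxcr2, the main chemokine receptor of neutrophils, was at 1410 and 1453 CPM, a log2 ratio of 0.04 (0.02 to 0.06).

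The partners of CCRL2 in the chemerin system were hardly seen in neutrophils. Cmklr1, the signalling chemerin receptor, had 6 UMIs in WT and 2 in APP/PS1, and Rarres2, which encodes chemerin, had 3 and 7. Gpr1, the other chemerin receptor, had 0 in both. In monocytes Cmklr1 was at 8.99 and 9.39 CPM, a log2 ratio of 0.06 (-0.20 to 0.32). Cxcr1 was past the limit on the higher side in monocytes, at 0.79 (0.28 to 1.30).

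Genes that NF-kB is known to induce went both ways. Of 30 listed, 28 had enough UMIs in neutrophils, 3 were past the limit on the higher side, 2 on the lower side and 23 lay between, beside 4.58% and 3.58% over all genes. The median of the 28 was 0.06 beside 0.05 over all genes. Zfp36, which encodes the mRNA decay factor tristetraprolin, was highest, at 1708 CPM in WT against 2875 CPM in APP/PS1, a log2 ratio of 0.75 (0.73 to 0.77). The adhesion molecule gene Icam1 was at 0.55 (0.30 to 0.81), as was Sod2, a mitochondrial superoxide dismutase, at 0.55 (0.40 to 0.70). The neutrophil chemokine gene Cxcl2 was lowest, at 4053 and 2703 CPM, a log2 ratio of -0.58 (-0.60 to -0.57), and Plaur, the urokinase receptor, was at -0.56 (-0.60 to -0.51). Il1b, at 14985 and 14957 CPM, gave -0.003 (-0.01 to 0.004). In monocytes, 29 had enough UMIs. Of these, 3 were past the limit on the higher side, Ccl3 (1.13), Ccl4 (0.53) and Zfp36 (0.52), and 1 on the lower side, Ier3 (-0.67). Over all genes with enough UMIs in monocytes, 2.0% and 2.83% were past it. The median of the 29 was 0.01, beside -0.02 over all genes.

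**Figure D5:**
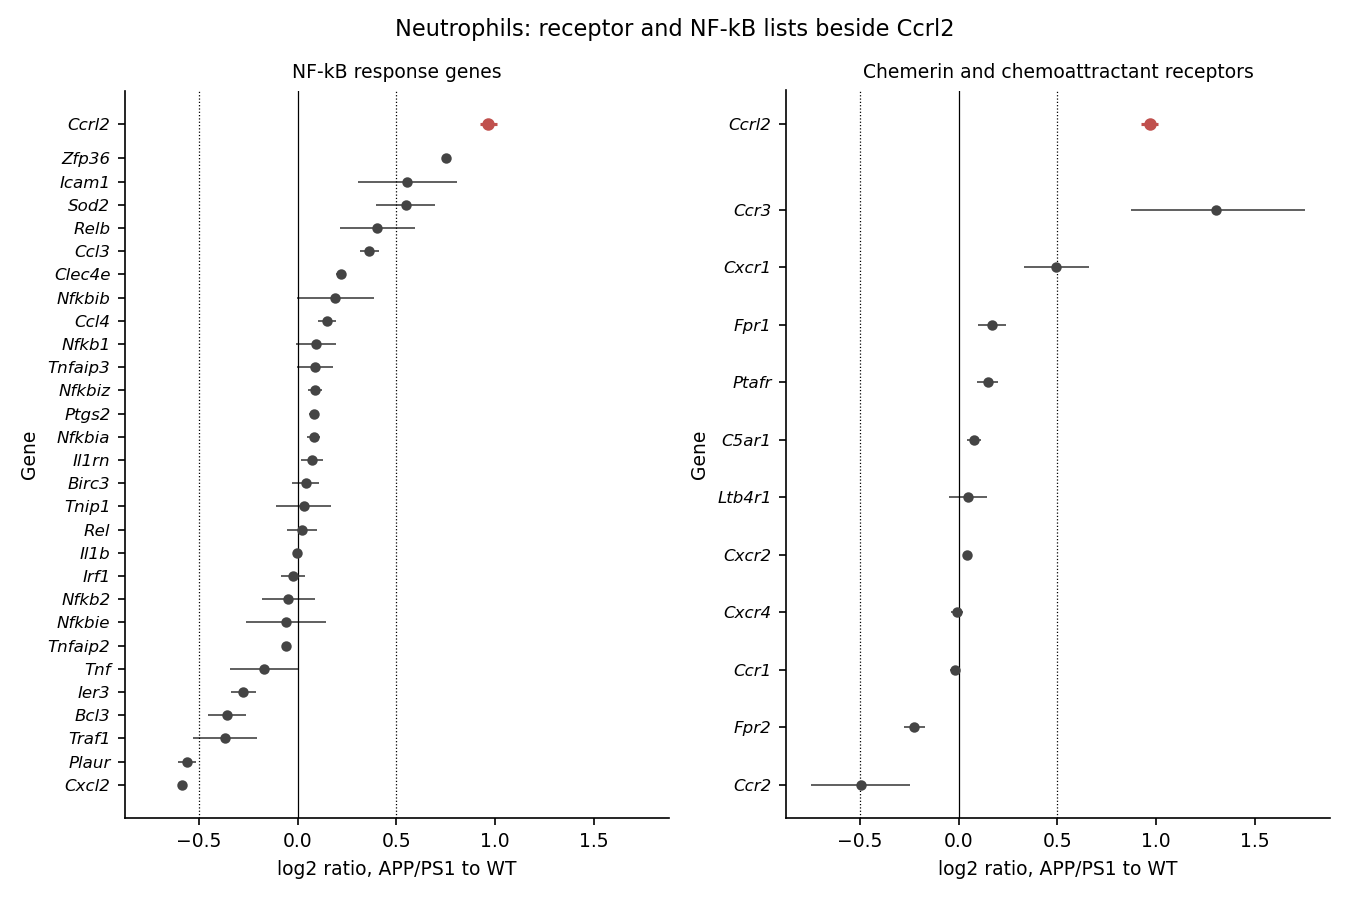
Log2 ratio of APP/PS1 to WT in neutrophils for the NF-kB response genes (left) and the chemerin and chemoattractant receptor genes (right) with at least 100 UMIs, with exact 95% counting intervals; Ccrl2 is in red and dotted lines mark the limit of 0.5. Ccrl2, at 0.97, lies above every listed gene but Ccr3.

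Over the 7 cell types of both libraries, the genes whose levels (log2 of CPM + 1) were most like that of Ccrl2, out of 8304, were F630028O10Rik (Pearson r = 0.96), Gm30411 (0.95), Taldo1 (0.95), Lpcat2 (0.95) and Cebpd (0.95). These are descriptions over 14 points that share 2 libraries. In neutrophils, F630028O10Rik, a long noncoding RNA gene, was at 285 CPM in WT against 353 CPM in APP/PS1, a log2 ratio of 0.31 (0.26 to 0.35). Cebpd, a C/EBP transcription factor of myeloid cells, was at 619 and 798 CPM, a log2 ratio of 0.37 (0.34 to 0.40). Taldo1, an enzyme of the pentose phosphate pathway, was at 0.12 (0.10 to 0.14), Lpcat2, which makes platelet-activating factor, at 0.10 (0.05 to 0.16), and Gm30411 at 0.26 (-0.04 to 0.56). None of the 5 was past the limit. For the neighbours, r ran from -0.70 for Dhx30 to 0.47 for Klhl18. The 5 genes are the highest of 8304, so nearly any gene would lie below them. The usual r over all genes is not given, and nothing is read from the values of the neighbours.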

How the data were processed

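For every barcode called a cell, the authors deposited raw counts of UMIs per gene, made with Cell Ranger 5.0.0 in default mode and the mm10 reference of 10x Genomics, with no normalization. As in the study's methods, cells below the 5th or above the 95th percentile for detected genes or UMIs in their library, or with over 10% mitochondrial UMIs, were left out. Kept cells were clustered with Seurat 5.3.0 (2000 variable features, 15 principal components, resolution 0.2) and named by markers. A cluster that carried platelet genes and had most of the neutrophil marker level was counted with neutrophils, and one with plasma cell and epithelial genes got no name; both were decided after the clusters were seen. Neutrophils were clustered again with anchors between libraries, at the lowest resolution with 6 clusters.

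Scrublet (scanpy 1.11.5) called doublets. Its automatic threshold called 0 APP/PS1 cells, so the WT threshold was used for both (9.04% and 7.29% called); doublets stayed in the main values.

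UMIs were summed per library and cell type, with exact Poisson, conditional and Clopper-Pearson intervals (scipy 1.17.1). On neutrophil counts of 8305 genes simulated as Poisson, 95.8% of intervals held the true ratio. The intervals rest on that same model, so this checks the calculation only. Whether real counts scatter more widely between cells or mice was not tested. Alternatives included edgeR 4.0.16 library sizes (TMM). The members and lists were chosen with earlier results of these data known. Named were the members, the 5 nearest genes with enough UMIs on each side, genes of the window past the limit, the 2 highest and lowest of each list and the 5 most alike; Cxcr2, the chemerin genes, Sod2 and Il1b, the genes past the limit in monocytes, and Ltf by cluster, were added after their values were seen. The result of 1 listed gene is not reported here.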

Additional observations from a re-analysis of the deposited data

Results flagged for a closer look

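Ccrl2 had opposite signs of its log2 ratio in cell types of the same libraries. It was at 0.97 in neutrophils, 0.91 in monocytes and 0.92 in NK cells, and at -0.42 (-0.94 to 0.09) in B cells, where the interval held 0 and removing called doublets gave 0.24. In NK cells the removal of doublets gave 0.33 (-0.26 to 0.94), which was no longer past the limit. The difference between cell types was not tested.

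The cluster left without a name, with 142 WT and 229 APP/PS1 cells led by Jchain, Mal and Igha, was used in no comparison. Ccrl2 was at 153 CPM in WT against 290 CPM in APP/PS1 there, a log2 ratio of 0.92 (0.51 to 1.35). Its neutrophil markers without S100a8 and S100a9 stood at 44.6% and 43.9% of the level in neutrophils, and their part in the result was not tested.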

How the results depend on the processing

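Ccrl2 was higher in APP/PS1 under every alternative run, at log2 ratios of 0.63 to 1.10 in neutrophils and 0.40 to 0.97 in monocytes. In neutrophils the ratio of 0.97 became 0.92 with TMM library sizes, 0.92 without abundant gene classes in the library size and 1.10 without cells with a platelet marker UMI, and in the bands of depth, chosen after seeing the data, it was 0.82, 1.06, 1.05 and 0.90. The difference of mean log-normalized values was 0.63 in neutrophils and 0.40 in monocytes; this scale shrinks low values by construction. The share difference was 11.8 percentage points in thinned cells. A limit of 0.25 in place of 0.5 put 1 of 8 neighbours, Dhx30, past it. The median of the neighbours stayed between -0.002 and 0.04. Of 56 values of single neighbours, 53 lay within the counting interval of the value reported, and 2 had the other sign (Klhl18, at -0.01 with TMM and without abundant classes).

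No paired analysis was possible because each genotype has 1 library, and for the same reason no replicate was left out. Dhx30, Scap and Smarcc1 rest on 180 to 222 UMIs in neutrophils, and their intervals are the widest of the neighbours.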
